A study of Mus musculus with 6 samples.

Results

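The oogenesin genes Oog1, Oog2, Oog3 and Oog4 and the Tcl1 family genes Tcl1, Tcl1b1, Tcl1b2, Tcl1b3, Tcl1b4 and Tcl1b5 are oocyte genes. The Tcl1 family lies in a single array in the mouse genome. Oog3 and Oog2 are close neighbours, and Oog4 and Oog1 lie apart from them. These 10 genes were taken by symbol from the 53465 genes of the count table, and all 10 were among the 11842 genes with enough reads to test. RNA was measured in M II stage oocytes, the mature egg stage, of aged Kunming (KM) females of 9 to 10 months after in vitro maturation (IVM). The 3 control pools were matured without quercetin and the 3 quercetin-treated pools with 10 μM of this plant flavonol, which the study dissolved in DMSO. Whether the control medium held DMSO is not stated in the sources used here. Each pool held 15 oocytes from 3 mice, so a value is an average over mice, and no young oocytes were part of the comparison. Whether oocytes of different pools came from different mice is not stated in the sources used here, so p-values measure the spread between these pools.

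Oogenesins belong to the PRAME family, a large group of leucine-rich repeat proteins that has expanded in the mouse and is used in germ cells and early embryos. OOG1 was first described as an oocyte protein that persists in the early embryo and binds RAS. TCL1 is a small protein that binds AKT kinases and raises their activity, and oocytes supply it to the embryo for the first cleavages. The Tcl1b genes are a mouse expansion of the TCL1B gene, and their products are less well known.

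The sequences these genes share set what a read count can say about each. The Tcl1b genes are close paralogues, as the following 60 bases of their coding strand show (bases 177 to 236 of the Tcl1b1 coding sequence and the aligned bases of the others, GENCODE M21 on GRCm38). Capitals mark bases that differ from Tcl1b1.
Tcl1b1: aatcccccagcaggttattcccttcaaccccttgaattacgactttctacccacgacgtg
Tcl1b2: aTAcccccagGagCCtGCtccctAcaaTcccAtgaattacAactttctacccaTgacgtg
Tcl1b3: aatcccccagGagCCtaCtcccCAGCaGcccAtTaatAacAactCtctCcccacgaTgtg
Tcl1b4: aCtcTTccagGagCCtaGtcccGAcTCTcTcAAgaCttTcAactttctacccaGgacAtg
Tcl1b5: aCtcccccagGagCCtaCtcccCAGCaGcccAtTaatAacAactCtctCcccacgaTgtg

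Tcl1b3 and Tcl1b5 differed from Tcl1b1 at 16 and 17 bases of this window, and Tcl1b4 differed most, at 20 bases. Over the whole coding sequence the 10 pairs of Tcl1b genes were 72.86% to 88.43% identical, whereas Tcl1 was 57.6% to 65.42% identical to the Tcl1b genes.

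The oogenesins were of similar distance from each other, 74.58% to 81.45% over their 6 pairs. The next lines give bases 722 to 781 of the Oog3 coding sequence with capitals at bases that differ from Oog3.
Oog3: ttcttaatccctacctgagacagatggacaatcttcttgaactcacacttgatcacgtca
Oog1: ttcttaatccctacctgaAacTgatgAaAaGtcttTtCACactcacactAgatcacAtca
Oog2: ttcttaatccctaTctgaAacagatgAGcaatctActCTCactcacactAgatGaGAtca
Oog4: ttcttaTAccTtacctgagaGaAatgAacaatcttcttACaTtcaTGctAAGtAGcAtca

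Oog1 had nearly identical annotated copies elsewhere. Of its 1491 coding bases, 1490 were identical to those of Gm2042, a predicted gene 345230 bases further along chromosome 12, and the identity to Gm10436, also on chromosome 12, was 99.13%. The run below, bases 716 to 775 of the coding sequence, is printed for Oog1 and is the same in Gm2042 and Gm10436.
Oog1: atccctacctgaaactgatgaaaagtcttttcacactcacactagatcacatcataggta

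Of the 31-base words in the annotated Oog1 transcripts, 93.41% also occurred in a transcript of another gene, and 78.03% of its 100-base words did. The shares of 31-base words were 42.99% for Oog2, mainly with Gm13084, 26.92% for Oog3, mainly with the processed pseudogene Gm4350 on chromosome 14, and 3.43% for Oog4. Tcl1 shared no 31-base word with an annotated transcript of another gene, and copies that are not annotated were not checked. The Tcl1b genes shared 12.41% (Tcl1b4) to 47.49% (Tcl1b3) of their 31-base words, only with each other among annotated genes, and 0.0% to 9.09% of their 100-base words. How reads that match several genes were counted is not given in the sources used here. The count of Oog1 is therefore uncertain as a measure of that gene alone, those of Oog2, Oog3 and the Tcl1b genes are uncertain for the shared stretches, and Tcl1 and Oog4 are nearly free of this limit.

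**Figure D1:**
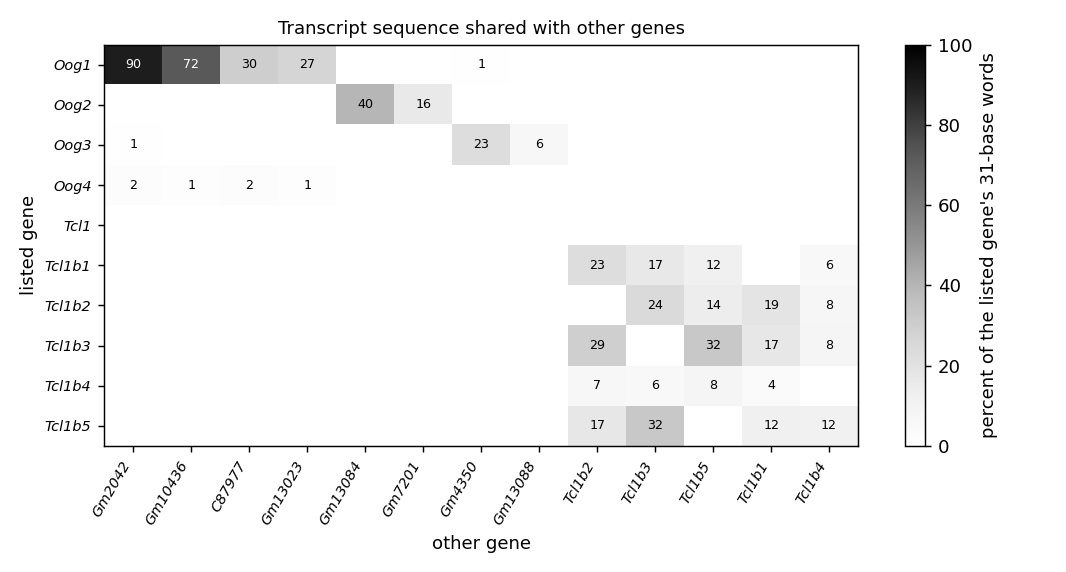
Percent of the 31-base words of each listed gene (rows) that also occur in annotated transcripts of another gene (columns, genes sharing at least 100 such words with a listed gene), in grey from 0 to 100 and printed rounded where it is 0.5 or more. Oog1 overlaps most with Gm2042 (90.17%) and Gm10436 (72.06%), the Tcl1b genes overlap with each other, and the row of Tcl1 is empty.

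The Tcl1 family occupied a single stretch of 76780 bases at chr12:105146014-105222793 (GRCm38). In chromosome order it held Tcl1b2 (ENSMUSG00000060863), Tcl1b1 (ENSMUSG00000066359), Tcl1b5 (ENSMUSG00000000701), Tcl1b3 (ENSMUSG00000068940) and Tcl1b4 (ENSMUSG00000079007), all on the plus strand, and then Tcl1 (ENSMUSG00000041359) on the minus strand. The gaps between neighbouring genes were 4464 to 9897 bases. Of the oogenesins, Oog3 (ENSMUSG00000050810, chr4:144157557-144162663, minus strand) and Oog2 (ENSMUSG00000066030, chr4:144190719-144196934, plus strand) were close neighbours, Oog4 (ENSMUSG00000047799, chr4:143437164-143450324, minus strand) lay on the same chromosome, and Oog1 (ENSMUSG00000096576, chr12:87602688-87608850, plus strand) lay on chromosome 12, away from the Tcl1 family. All 10 were annotated as protein coding and none of their exons overlapped an exon of another gene.

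Upstream sequence is shown because the genes of each family were abundant in the same cells. The lines give the 100 bases before the RefSeq start of the 4 oogenesins (GRCm38.p6), read along each gene's strand. Capitals mark E-boxes, the 6-base sequence CANNTG that basic helix-loop-helix proteins can bind.
Oog1: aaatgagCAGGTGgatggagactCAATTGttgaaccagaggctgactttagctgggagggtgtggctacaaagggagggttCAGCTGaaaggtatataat
Oog2: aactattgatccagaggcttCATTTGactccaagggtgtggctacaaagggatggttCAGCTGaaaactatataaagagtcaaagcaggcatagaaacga
Oog3: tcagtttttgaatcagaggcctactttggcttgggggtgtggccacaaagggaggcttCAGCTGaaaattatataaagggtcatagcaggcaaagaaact
Oog4: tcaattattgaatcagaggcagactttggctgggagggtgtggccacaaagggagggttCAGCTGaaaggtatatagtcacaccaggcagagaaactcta

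These windows are chr12:87602565-87602664, chr4:144190617-144190716, chr4:144162652-144162751 and chr4:143450325-143450424. All 4 held CAGCTG followed 5 bases later by TATATA, with CAGCTG starting 43, 42 and 41 bases before the start in Oog2, Oog3 and Oog4 and 19 bases before it in Oog1. These distances are to the RefSeq start and depend on the annotation. GENCODE starts Oog1 further downstream, at chr12:87602688, and Oog3 further upstream, at chr4:144162663. Of 32851 promoter windows of the same length in RefSeq (250 bases before to 50 after the start), searched on both strands, 9 held this arrangement (0.0274%). The other 5 belonged to Gm2042, Pramel23, Pramel26, Pramel32 and Gm39804. CAGCTG alone was in 16.3% and TATATA alone in 5.67% of all windows.

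The Tcl1b genes carried a different pair of E-boxes. The 100 bases before the RefSeq start are given for Tcl1b1, the most abundant Tcl1b gene, and Tcl1b5, the least abundant, at chr12:105159604-105159703 and chr12:105176244-105176343, with E-boxes in capitals.
Tcl1b1: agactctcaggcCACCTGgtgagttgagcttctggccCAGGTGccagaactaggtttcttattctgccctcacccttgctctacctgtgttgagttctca
Tcl1b5: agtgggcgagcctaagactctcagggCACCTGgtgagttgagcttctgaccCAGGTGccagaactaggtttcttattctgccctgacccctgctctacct

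CACCTG, 19 bases and then CAGGTG, the same box on the other strand, were found in all 5 Tcl1b windows and in 7 of the 32851 windows (0.0213%), the other 2 being those of Cldn4 and 1700097N02Rik. Tcl1 had a single CACCTG, at 21 bases before its start. CACCTG alone was in 20.2% of all windows. Any E-box was in 72.3% of all windows and in those of 10 of 10 listed genes, a difference that related windows cannot be used to judge. Windows of the Tcl1b genes were 90.91% to 98.61% identical to each other, closer than their coding sequences, and those of the oogenesins 76.3% to 83.64%. The arrangements were picked after the sequences had been read, they are descriptions of letters and not of bound sites, and the windows of paralogues are not independent of each other.

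Depth was similar over the pools, with 7880467 to 9938743 counts on genes, and 3 counts corresponded to 0.329 to 0.376 CPM, counts scaled to a fixed library total, after adjustment by TMM, a method that lines up libraries on the bulk of their genes. Of 15 oocyte markers, 13 passed the filter on low counts, with a summed 24632.9 to 28100.8 CPM in control pools and 26131.0 to 29666.0 CPM in quercetin-treated pools. Of 15 cumulus and granulosa markers, 4 passed the filter and 4 (Amh, Foxl2, Ptx3 and Amhr2) had no read in any pool, and of 7 blood and immune markers 1 passed and 4 had no read. Counting error was smaller than the spread between pools. The lowest count of any listed gene in any pool was 2450, with an exact 95% Poisson interval of 2353.9 to 2549.0 that covers counting error only.

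Both families were among the most abundant RNAs of these oocytes. The 6 Tcl1 family genes took 1.74% ± 0.111 (SD, n = 3) of all counts in control pools, and the 4 oogenesins 0.961% ± 0.0611. On the scale of CPM per kilobase of exon, which allows levels of different genes to be compared, Oog3 ranked 11, Tcl1 12 and Tcl1b1 14 among the 11842 tested genes by the mean of both groups. Tcl1b2 ranked 38, Tcl1b3 44, Tcl1b4 89, Oog1 172, Tcl1b5 188, Oog4 312 and Oog2 403.

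In control pools the level of Tcl1 was 4234.5 ± 424.4 CPM per kb, of Oog3 4156.3 ± 267.8 and of Tcl1b1 3968.4 ± 353.9 (means ± SD, n = 3 pools). The ranges of these 3 neighbours overlapped, so their order was not separated beyond the spread between pools. Tcl1b2 followed at 1803.6 ± 224.1, Tcl1b3 at 1358.7 ± 173.7 and Tcl1b4 at 659.3 ± 59.72 CPM per kb, each below the gene before it with no overlap. Oog1 was at 373.4 ± 69.65 and Tcl1b5 at 306.6 ± 31.16 CPM per kb, with overlapping ranges. Oog4 at 181.4 ± 30.03 and Oog2 at 135.6 ± 5.601 CPM per kb closed the order without overlap. In quercetin-treated pools Oog3, at 5570.6 ± 764.6 CPM per kb, came before Tcl1, at 5213.8 ± 1052.3, again with overlapping ranges, and the order of the other genes was the same, with Tcl1b2 and Tcl1b3 now overlapping as well. Within the listed oogenesins the step from Oog3 to the next gene was the main feature. Oog3 held 82.3% to 83.2% of their summed reads in control pools. Gm2042, the nearly identical copy of Oog1, is outside this sum. At 740.3 CPM per kb in control pools it lay above Oog1 and below Oog3. The level and rank of Oog1 and the share of Oog3 therefore depend on how reads that match several genes were counted, which is not known. The top of the order, and which ranges overlapped, depended on the length used. The overlaps given above are those by exon length. With the length of the transcript that has the longest coding sequence, control means were 6215.5 CPM per kb for Tcl1b1, 6014.4 for Tcl1 and 4156.3 for Oog3. Those of Oog4 and Oog2 were 197.7 and 175.5 CPM per kb.

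Level did not fall off along the Tcl1 cluster in chromosome order. Tcl1b5, the lowest, sat between Tcl1b1 and Tcl1b3, and the highest levels were those of Tcl1 at one end and Tcl1b1 near the other. The nearest tested genes outside were far lower on the same scale in control pools. The pseudogene Gm47672, 10573 bases before the cluster, was at 10.58 CPM per kb, and Bdkrb1, a bradykinin receptor gene 380292 bases after it, at 10.45.

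**Figure D2:**
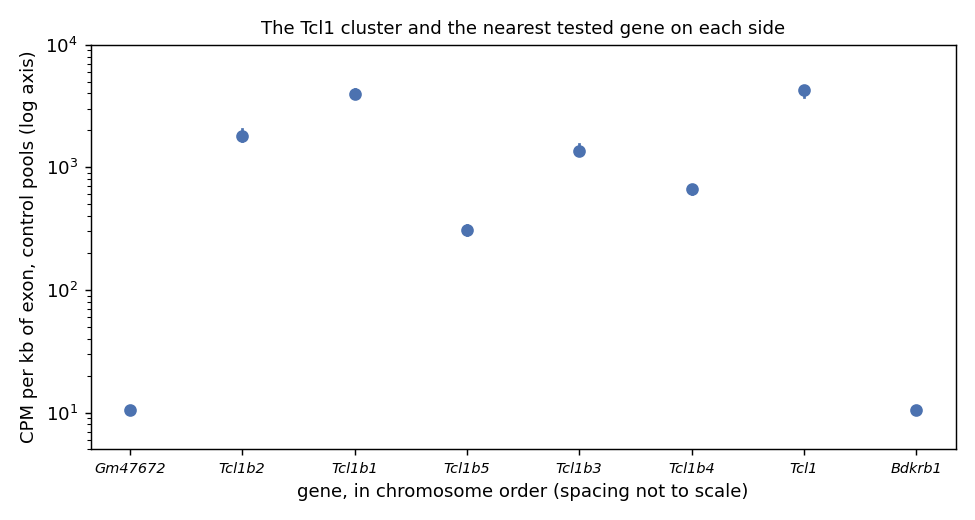
CPM per kb of exon (log axis) in control pools for the Tcl1 family genes in chromosome order and for the nearest tested gene on each side, with points for the means of 3 pools and lines for the range of the pools of the family genes. All 6 family genes, from 306.6 to 4234.5 CPM per kb, stand above the flanking genes Gm47672 and Bdkrb1, at 10.58 and 10.45.

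The oogenesins lay among other PRAME genes of very different levels. C87977, 9841 bases beyond Oog2, was at 105.7 CPM per kb in control pools, Pramef17, 163188 bases before Oog3, at 2.089, and Pramef8, 16073 bases before Oog4, at 1.424. On the other side of Oog4 the pseudogene Gm13041 was at 33.63 CPM per kb. Beside Oog1, the pseudogene Gm48110 was at 7.493 and the copy Gm2042 at 740.3 CPM per kb. How reads of the shared sequence were divided between Gm2042 and Oog1 is not known.

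The comparison of quercetin-treated with control pools asked whether these RNAs differed with treatment in aged oocytes. None of the 10 genes passed the call rule, an adjusted p under 0.05 with a fold change over 2 in edgeR's quasi-likelihood test. Over all tested genes the share called was 0.0%, with a smallest adjusted p of 0.073. The log2 fold change of quercetin over control was above 0 for 10 of 10 genes, between 0.10 and 0.42 with a median of 0.203. Over all tested genes 46.4% were above 0 and the median was -0.026. Genes of high level leaned the same way, however. Among the 505 tested genes that ranked by mean CPM above Tcl1b5, the lowest listed gene (347.7), 73.7% were above 0 and the median was 0.133. The other listed genes are part of this set. That comparison set was chosen after the values were seen.

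**Figure D3:**
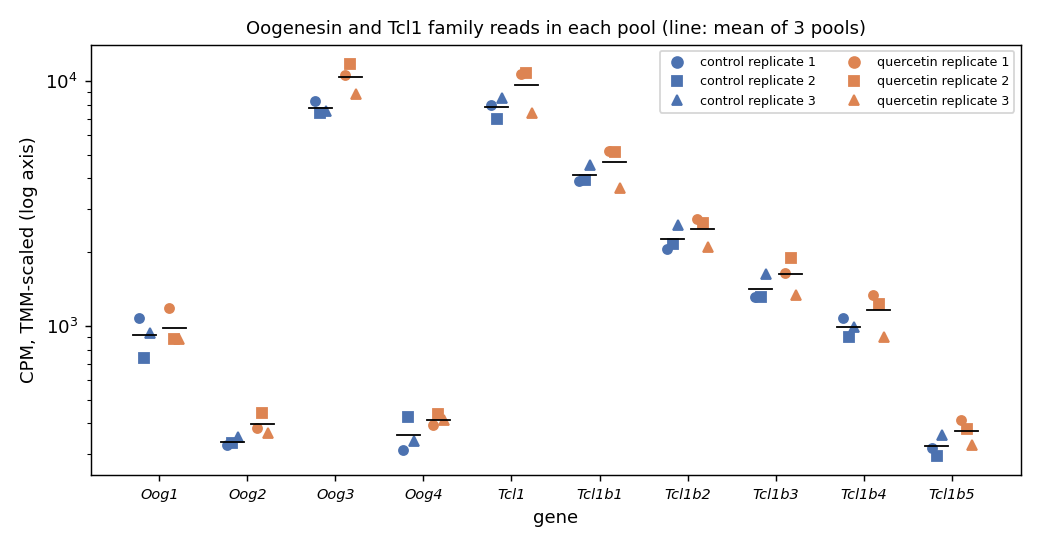
TMM-scaled CPM (log axis) of the 10 genes in each pool, control in blue and quercetin-treated in orange, with a symbol for each replicate number and a line at the mean of 3 pools. The groups overlap for 8 genes, and for Oog2 and Oog3 all quercetin-treated pools lie above all control pools.

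Oog3, the most abundant oogenesin, showed the largest difference. Its counts were 74125, 61335 and 67223 in control pools and 84556, 106692 and 75380 in quercetin-treated pools, which scaled to 8317.8, 7373.7 and 7562.9 CPM and to 10592.4, 11702.6 and 8872.5 CPM. Every quercetin-treated pool lay above every control pool. The log2 fold change was 0.42 ± 0.15 (SE), a 1.34-fold higher level with a 95% interval of 1.05 to 1.71, and the adjusted p in edgeR was 0.988. The unadjusted edgeR p was 0.0226, which made Oog3 the only one of 10 genes under 0.05, where 4.03% of all tested genes and 9.7% of the 505 genes of high level were. An exact two-sided permutation test over the 6 pools gave p = 0.1, the smallest that 3 pools against 3 allow.

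Oog2 was the other gene whose groups did not overlap. Its counts were 2907, 2752 and 3131 in control and 3052, 4021 and 3093 in quercetin-treated pools, or 326.2, 330.8 and 352.3 CPM against 382.3, 441.0 and 364.1 CPM. The step between the highest control and the lowest quercetin-treated pool was small beside the spread of the treated pools. The log2 fold change was 0.24 ± 0.14 (edgeR adjusted p = 0.988), and the exact permutation p was 0.1. Groups that did not overlap, with quercetin higher, were thus seen in 2 of 10 genes, against 5.42% of all tested genes and 16.8% of the 505 genes of high level. Both genes kept this separation when CPM were scaled by library size or by DESeq2 size factors.

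Oog4 and Oog1 had overlapping groups. Oog4 counts were 2784, 3545 and 3015 in control and 3144, 3973 and 3509 in quercetin-treated pools, with 359.3 ± 59.48 and 414.2 ± 20.99 CPM. Control replicate 2 stood within the treated range, and the log2 fold change was 0.21 ± 0.15 (edgeR adjusted p = 0.988). Oog1 counts were 9591, 6124 and 8295 in control and 9405, 8049 and 7504 in quercetin-treated pools, with 915.2 ± 170.7 and 981.4 ± 170.4 CPM. It was the gene with the smallest difference, 0.10 ± 0.19 in log2 fold change (edgeR adjusted p = 0.99), and the sign turned without control replicate 2 (-0.03) or without quercetin replicate 1 (-0.05).

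The genes that share sequence with the oogenesins were read beside them. Gm2042, the nearly identical copy of Oog1, had 22954, 15504 and 21205 counts in control and 22959, 17986 and 19125 in quercetin-treated pools, with a log2 fold change of 0.06 ± 0.19 (edgeR adjusted p = 0.995). Control replicate 2 was the lowest pool of both. Gm10436, which also shares most of Oog1, did not overlap between groups, at 652.7 ± 27.37 and 860.5 ± 128.9 CPM, with 0.40 ± 0.15 (edgeR adjusted p = 0.988). Reads of Oog1 summed with those of Gm2042, Gm10436, C87977 and Gm13023 gave a log2 ratio of mean CPM of 0.169 with overlapping groups. Oog3 summed with Gm4350 and Gm13088 gave 0.414 and Oog2 summed with Gm13084 and Gm7201 gave 0.256, and in both sums the quercetin-treated pools lay above all control pools.

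Tcl1, which shared no 31-base word with an annotated transcript of another gene, had 71073, 57904 and 75567 counts in control pools. In quercetin-treated pools it had 85102, 98629 and 62695. The scaled levels were 7975.3, 6961.2 and 8501.7 CPM against 10660.7, 10818.2 and 7379.4 CPM. Quercetin replicates 1 and 2 lay above every control pool and replicate 3 lay below the control mean. The log2 fold change was 0.30 ± 0.18, a fold of 1.23 with a 95% interval of 0.925 to 1.64 (edgeR adjusted p = 0.988).

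In the Tcl1b genes too, quercetin replicates 1 and 2 were the higher treated pools. Tcl1b1 had 34794, 32649 and 40460 counts in control and 41227, 46775 and 30950 in quercetin-treated pools, with a log2 fold change of 0.17 ± 0.17. Tcl1b2 had 18339, 17934 and 22999 against 21717, 24065 and 17826 counts, with 0.13 ± 0.16. In both genes quercetin replicate 3 fell within or below the control range after scaling.

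Tcl1b3 had 11702, 10956 and 14483 counts in control and 13155, 17310 and 11314 in quercetin-treated pools (log2 fold change 0.20 ± 0.17). Tcl1b4 had 9591, 7466 and 8758 against 10694, 11190 and 7672 (0.23 ± 0.17), and Tcl1b5, the least abundant, 2822, 2450 and 3193 against 3287, 3443 and 2772 (0.20 ± 0.15). The adjusted p in edgeR was 0.988 for each of the 5 Tcl1b genes. In scaled CPM, quercetin replicates 1 and 2 were above all control pools in 6 of 6 Tcl1 family genes, and quercetin replicate 3 was the lowest treated pool in 6 of 6. With CPM scaled by library size alone the first held in 3 of 6 and the second in 6 of 6. These genes lie side by side and the Tcl1b genes share sequence, so the 6 are not independent observations. The highest upper bound of any 95% interval over the 10 genes was a fold of 1.71, that of Oog3.

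**Figure D4:**
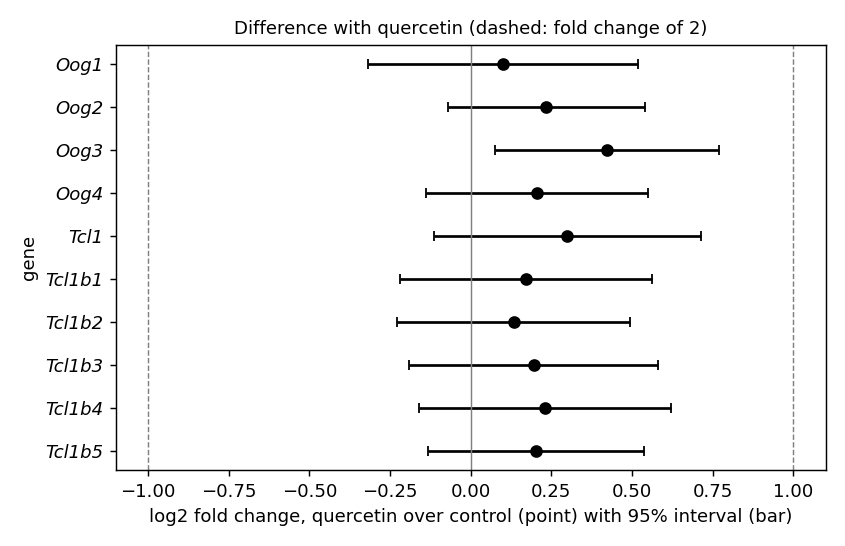
Log2 fold change of quercetin-treated over control pools for the 10 genes (points) with 95% intervals from edgeR (bars), a solid line at 0 and dashed lines at a fold change of 2 in either direction. All points lie right of 0, from 0.10 for Oog1 to 0.42 for Oog3, 9 of 10 intervals include 0, and no interval reaches a dashed line.

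Counts were also made without each pool in turn, and quercetin replicate 3 weighed most. Without it 5 of the 10 genes had an unadjusted edgeR p under 0.05, namely Oog3, Tcl1, Tcl1b4, Tcl1b1 and Oog2, where 12.8% of all tested genes and 31.7% of the 505 genes of high level did. None passed the call rule. Oog3 was at 0.53 (edgeR adjusted p = 0.2) and Tcl1 at 0.46 (edgeR adjusted p = 0.239). This pool was the lowest treated pool of 8 of the 10 genes, so larger differences without it follow from its place, and these counts are a description. Groups did not overlap, with quercetin higher, for 8 genes without it, against 14.3% of all tested genes and 50.7% of those of high level. Without control replicate 2, control replicate 3, quercetin replicate 1 or quercetin replicate 2 the count at an unadjusted p under 0.05 was 0, against 1.98% to 3.51% of all tested genes.

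As shares of all counts, the oogenesins took 1.03%, 0.936% and 0.917% in control and 1.18%, 1.24% and 1.10% in quercetin-treated pools. The groups did not overlap, and the means were 0.961% and 1.17%, a difference of 0.213 percentage points that is described without a test. Oog3 carries most of this sum. It held 84.2% to 86.9% of the listed oogenesins' reads in quercetin-treated pools, above its 82.3% to 83.2% in control pools. The Oog1 copies Gm2042 and Gm10436 are left out of the sum, so these shares depend on how reads that match several genes were counted. The Tcl1 family took 1.71%, 1.64% and 1.86% in control and 2.07%, 2.03% and 1.64% in quercetin-treated pools, with overlapping groups. Composition within the Tcl1 family was steady, since Tcl1 held 44.8% to 49.0% of its reads, Tcl1b1 23.2% to 25.2% and Tcl1b5 1.71% to 2.08% in all 6 pools. The share of counts from mitochondrially encoded genes was 2.47% to 3.11% in control and 2.10% to 2.29% in quercetin-treated pools, and with these genes left out of the total the difference of the oogenesins was 0.211 percentage points. Reads at an annotated ribosomal RNA locus were 0.0631% to 0.0966% in control and 0.0328% to 0.0417% in quercetin-treated pools. The summed cumulus and granulosa markers, largely Cyp19a1 and Kitl, were 70.45 to 87.19 CPM in control and 92.52 to 97.62 CPM in quercetin-treated pools. The part of ribosomal reads and of these markers in the oogenesin values was not tested, and in bulk pools fewer cells of a type and less RNA per cell cannot be told apart.

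**Figure D5:**
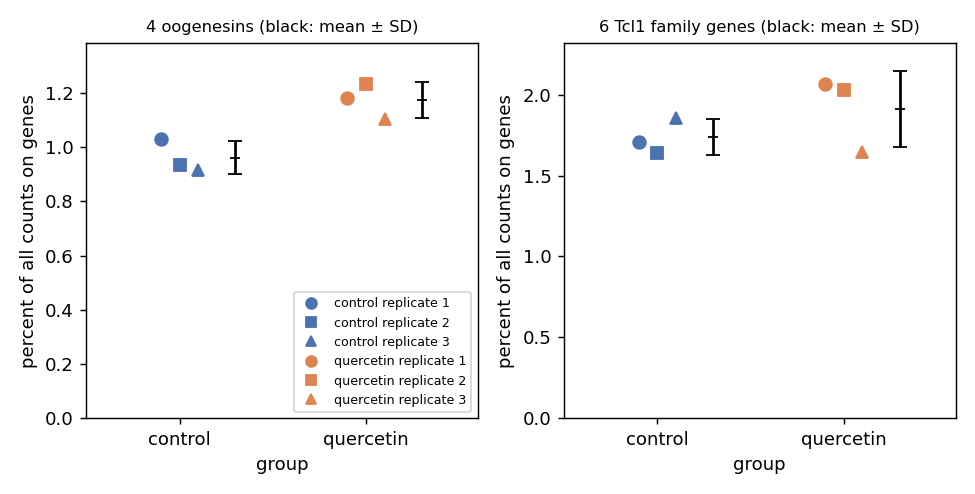
Percent of all counts on genes taken by the 4 oogenesins (left) and the 6 Tcl1 family genes (right) in each pool, with a symbol for each replicate number and mean ± SD in black (n = 3 pools). Quercetin-treated pools of the oogenesins (1.10% to 1.24%) lie above control pools (0.917% to 1.03%), while quercetin replicate 3 of the Tcl1 family (1.64%) lies at the level of the lowest control pool.

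Spread between pools was of the size seen in other abundant genes. The coefficient of variation in control pools was lowest for Oog2 at 4.13% and highest for Oog1 at 18.7%, and in quercetin-treated pools lowest for Oog4 at 5.07% and highest for Tcl1 at 20.2%. Medians over the 505 genes of high level were 9.41% in control and 14.9% in quercetin-treated pools, and over all tested genes 17.8% and 22.2%.

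Relatives of the oogenesins were examined as a list of 42 PRAME-like genes, of which 18 were tested, 9 had no read in any pool and 0 were called. Of the 18, 14 had a log2 fold change above 0, with a median of 0.201. The share above 0 was 46.4% over all tested genes and 73.7% over the 505 genes of high level. The smallest unadjusted p belonged to Gm10436, described above, and C87414, at 396.9 ± 22.93 CPM in control and 484.0 ± 35.92 CPM in quercetin-treated pools, with 0.29 ± 0.13 (edgeR adjusted p = 0.988). Several genes of this list share sequence with Oog1, Oog2 or Oog3.

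Genes of the AKT pathway, through which TCL1 is known to act, gave 0 calls among 23 tested, with 11 above 0 and a median log2 fold change of -0.009. Pik3ca, the catalytic subunit alpha of phosphoinositide 3-kinase upstream of AKT, had 446, 370 and 109 counts in control and 64, 93 and 72 counts in quercetin-treated pools. The treated pools lay below all control pools, with control replicate 3 close to them, and the log2 fold change was -1.997 ± 0.459 (edgeR adjusted p = 0.893). DESeq2's Wald test gave -1.97 for Pik3ca with an adjusted p of 0.0029. The related subunit gene Pik3cb was at 0.62 ± 0.28 with overlapping groups (edgeR adjusted p = 0.988).

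Genes of RAS and RAL signalling, listed because OOG1 is known to bind RAS, gave 0 calls among 11 tested, with 5 above 0. Ralgapa1, a subunit of the RAL GTPase-activating complex, was lower in all quercetin-treated pools, with -0.39 ± 0.23 (edgeR adjusted p = 0.988). Among the oocyte markers Ooep, a maternal-effect gene, was at -0.92 ± 0.39 with overlapping groups and Gdf9, an oocyte growth factor, at 0.22 ± 0.14 with quercetin-treated pools above all control pools (edgeR adjusted p = 0.988 for both). The cumulus markers Kitl and Cyp19a1 were at 0.59 ± 0.21 and 0.22 ± 0.15 (edgeR adjusted p = 0.988), both without overlap. Cd68, the tested blood and immune marker, was at 0.02 ± 0.32 (edgeR adjusted p = 0.999). Groups did not overlap, with quercetin higher, in 5.42% of all tested genes and 16.8% of the 505 genes of high level. The share with quercetin lower was not counted. The named genes had the smallest unadjusted p of their lists, a choice that favours groups without overlap.

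The genes whose level followed each family most closely over the 6 pools were found by Pearson's r on log2 CPM, as a description over 6 points that share their libraries and depth. For the summed oogenesins they were Snx2 (r = 0.997), Tmprss11a (0.992) and Ddb2 (0.990) among 7927 genes compared. For the summed Tcl1 family they were C87499 (r = 0.991), itself in the PRAME-like list, Pex13 (0.991) and Polr2c (0.991) among 7925 genes. With so many genes and so few pools, values this high are reached by several genes.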

How the data were processed

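The 6 pools were amplified as full-length cDNA (Smart-seq HT) and read on an Illumina NovaSeq instrument. The authors deposited whole-number counts per Ensembl gene. The study's methods name Hisat2 and Ensembl release 91 of GRCm38, whereas the submitters' processing notes list TopHat2 2.0.6 and CASAVA 1.8, so the aligner is uncertain. The counting program, strand setting and treatment of multiply matching reads are not given in the sources used here. Reads of Kunming mice were aligned to a reference of another strain, which can lower counts where paralogues or strains differ.

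Symbols, positions and transcripts came from GENCODE M21 (GRCm38), and promoters from RefSeq (GRCm38.p6), in which all 10 genes matched. Counts were fitted in edgeR 4.0.16 (R 4.3.3; filterByExpr with a minimum count of 10, TMM, quasi-likelihood test, Benjamini-Hochberg over 11842 genes, no covariate). Sequence sharing was counted as words of 31 and 100 bases. Alternatives were DESeq2 1.42.0, limma-voom (limma 3.58.1), other scalings and filters, a replicate block and leaving out each pool. The genes, lists and tests were chosen with earlier results of these data known. Named were the 10 genes, in each further list up to 2 tested genes with the smallest unadjusted p, the nearest tested neighbours, and the 3 genes most alike to each family among those with a mean of at least 5 CPM. A gene that this rule names is not reported here.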

Additional observations from a re-analysis of the deposited data

How the results depend on the processing

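No listed gene was called under any of the 13 alternatives, and 128 of 130 log2 fold changes were above 0. The exceptions were Oog1 without control replicate 2 (-0.032) and without quercetin replicate 1 (-0.051), over a leave-one-out range of -0.051 to 0.236; the cause was not tested. Leaving out each pool gave 0 to 5 genes at an unadjusted edgeR p under 0.05, where 1.98% to 12.8% of all tested genes were. With all pools the count was 1, where 4.03% of all tested genes were. With a replicate block the count was 0, where 4.15% of all tested genes and 6.14% of the 505 genes of high level were. Same-numbered pools correlated at 0.296, 0.101 and -0.0303 in their deviations from the group means. The mean of these was 0.122, against -0.0612 for pools of other numbers. Deviations within 3 pools are tied to each other, so these values cannot decide whether the numbers pair the pools. The sources used here do not say that they do, so the main test had no block. Among the further lists, DESeq2's Wald test called 1 gene, Pik3ca, where edgeR called 0; the cause was not tested. Over all genes calls numbered 0 in the main edgeR fit and up to 7 (without quercetin replicate 1) when a pool was left out. On the 24476 genes with at least 1 count in total, edgeR called 3 and DESeq2 called 11. Adjusted p-values of Oog3 over the alternatives started at 0.2, without quercetin replicate 3. Scaling by library size alone moved the median of all genes to -0.111, Oog3 to 0.329, Oog1 to 0.016, Oog2 to 0.146, Oog4 to 0.117, Tcl1b1 to 0.076, Tcl1b2 to 0.043, Tcl1b3 to 0.103, Tcl1b4 to 0.135 and Tcl1b5 to 0.113. Leaving out each pool moved Tcl1b1 between 0.089 and 0.321, Tcl1b2 between 0.065 and 0.247, Tcl1b3 between 0.071 and 0.322, Tcl1b4 between 0.112 and 0.382, Tcl1 between 0.209 and 0.461, Tcl1b5 between 0.123 and 0.292, Oog2 between 0.151 and 0.293 and Oog4 between 0.116 and 0.348. Leaving out each pool gave 2 to 8 genes whose groups did not overlap, with quercetin higher, against 8.1% to 14.3% of all tested genes. The count was 4 without control replicate 3, against 10.3% of all tested genes and 28.7% of the 505 genes of high level. It was 8 without quercetin replicate 3, against 14.3% and 50.7%. The highest upper bound of an interval was a fold of 1.71, with 3 pools a group and at least 2450 counts per gene and pool. What set the width of the intervals was not tested.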
